A study of Mus musculus with 5 samples.

Results

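The Hox cluster genes of the mouse were examined in RNA from thyroid tumor cell lines driven by BrafV600E. They were taken as every gene whose symbol, looked up by NCBI gene number, is Hoxa, Hoxb, Hoxc or Hoxd followed by a number alone, which gives 39 genes in 4 clusters, with 11 in HoxA, 10 in HoxB, 9 in HoxC and 9 in HoxD. Of these, 35 were listed in at least 1 library, among 17923 genes of all kinds. Hoxa11, Hoxb1, Hoxc12 and Hoxd12 were listed in none. A gene not listed in a library is given as 0 there.

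The lines were grown from mouse thyroid tumors that carry BrafV600E, with Ctnnb1, the gene of β-catenin, intact (BVE-Ctnnb1wt, 2 libraries) or deleted (BVE-Ctnnb1null, 3 libraries). Both BVE-Ctnnb1wt libraries carry one line name at passage 20 and are called wt 1 (labelled without thyroid-stimulating hormone, TSH) and wt 2 (labelled with TSH). The BVE-Ctnnb1null libraries carry a line name each and are called null 1 (BVECTN_4, passage 8, without TSH), null 2 (BVECTN_4A, passage 11) and null 3 (BVECTN_5, passage 7), with no TSH label for null 2 and null 3. The culture text gives a medium with 4 mU/mL bovine TSH and about 25 passages of BVE-Ctnnb1wt and about 20 of BVE-Ctnnb1null cells, and whether BVECTN_4 and BVECTN_4A come from one tumor was not stated. Genotype, passage and the line itself cannot be told apart here, and although the paper speaks of biological replicates, in a number that is not that of the wt libraries, nothing states that the libraries of a group come from separate animals, so p-values measure only the spread between these libraries. Each library held between 29360002 and 30713079 estimated counts, so a gene at 0 may hold up to 3 counts, which is 0.098 to 0.102 CPM (counts relative to library size) and covers error of counting alone. Values of the wt pair are given in the order wt 1 and wt 2, and those of the 3 null lines in the order null 1, null 2 and null 3.

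Ctnnb1 itself was read first as a check of the labels. Its level was 59.3 and 73.8 FPKM (fragments scaled to transcript length and library total) in wt 1 and wt 2, and 124.6, 196.3 and 117.8 FPKM in null 1, null 2 and null 3. All 3 libraries labelled null were above both labelled wt (two-sided exact permutation p = 0.1, the smallest that 2 against 3 libraries can give). After TMM scaling the groups overlapped, at 251 and 356 CPM in the wt pair and 418, 572 and 344 CPM in the 3 null lines, and the fitted log2 fold change was 0.55 (SE 0.44, edgeR adjusted p = 0.517). The fitted level was not lower in the null libraries, so the labelled deletion does not show in the RNA level. Values per transcript do not show which exons were read, so this check cannot decide whether the labels are right. Wherever a direction is given below, null and wt mean the libraries so labelled.

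The labelled source, thyroid epithelial cells, was checked against marker genes. Of 8 thyroid follicular markers, Tshr, the TSH receptor, was at or under 0.11 FPKM in every library, and Tg, the hormone precursor, was between 0.04 and 0.86 FPKM. Pax8, a thyroid transcription factor, was at 0.40 and 0.17 FPKM in wt 1 and wt 2 and at 18.2, 12.8 and 2.56 FPKM in null 1, null 2 and null 3 (log2 fold change 4.75, SE 1.09, edgeR adjusted p = 0.180), all 3 above both wt. Slc5a5, the iodide transporter, was at 6.48 FPKM in null 1 and between 0.05 and 1.03 FPKM in the others. Nkx2-1, a transcription factor of thyroid and lung, was 9.21 and 15.02 FPKM in the wt pair and 9.26, 34.8 and 0.26 FPKM in null 1, null 2 and null 3. The null lines also stood apart in general cell type markers. Null 1 held 2 of 10 fibroblast and mesenchymal markers at 1 FPKM or more, against 8 or 9 in each of the other 4 libraries. Null 2 held 4 of 8 epithelial markers at that level, with Epcam and Cdh1 at 0, against 7 or 8 in the others. These values are taken up again beside the Hox results.

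Hox genes encode homeodomain transcription factors that give cells along the body axis their regional identity. Within each cluster the genes stand in the order in which they are used from head to tail, low numbers anterior and high numbers posterior, and genes with the same number in different clusters are paralogs. Adult cells in culture often keep the Hox pattern of the place they came from, held by Polycomb (repressive) and Trithorax (activating) chromatin complexes, and the thyroid forms from the floor of the pharynx, near the anterior limit of Hox expression.

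The promoters of 4 genes are shown, 1 from each cluster, because the results turn on them. Hoxa5 was at background in null 1 alone, Hoxb4 was present in every library, Hoxc4 was high in null 2, and Hoxd8 was present in null 3 alone. Each is the 250 bases before the annotated RefSeq start on GRCm38.p6, written 5′ to 3′ on the strand of the gene, with capitals for matches to motifs. The windows are chr6:52204588-52204837 (minus strand) for Hoxa5, chr11:96318017-96318266 (plus) for Hoxb4, chr15:103034145-103034394 (plus) for Hoxc4 and chr2:74704365-74704614 (plus) for Hoxd8.
Hoxa5: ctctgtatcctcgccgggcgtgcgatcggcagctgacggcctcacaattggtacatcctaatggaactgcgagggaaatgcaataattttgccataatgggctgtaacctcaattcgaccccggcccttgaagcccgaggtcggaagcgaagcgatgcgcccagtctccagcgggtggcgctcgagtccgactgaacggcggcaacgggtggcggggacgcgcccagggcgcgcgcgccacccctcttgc
Hoxb4: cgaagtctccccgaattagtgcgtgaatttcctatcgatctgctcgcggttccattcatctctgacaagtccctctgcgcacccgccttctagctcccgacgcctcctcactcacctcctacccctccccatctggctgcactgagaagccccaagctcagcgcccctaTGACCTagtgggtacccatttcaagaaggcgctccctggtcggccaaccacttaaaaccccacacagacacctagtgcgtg
Hoxc4: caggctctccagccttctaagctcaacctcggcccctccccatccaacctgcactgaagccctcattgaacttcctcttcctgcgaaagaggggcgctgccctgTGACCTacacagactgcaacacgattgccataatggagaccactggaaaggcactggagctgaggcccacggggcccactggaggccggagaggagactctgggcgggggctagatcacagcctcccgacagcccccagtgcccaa
Hoxd8: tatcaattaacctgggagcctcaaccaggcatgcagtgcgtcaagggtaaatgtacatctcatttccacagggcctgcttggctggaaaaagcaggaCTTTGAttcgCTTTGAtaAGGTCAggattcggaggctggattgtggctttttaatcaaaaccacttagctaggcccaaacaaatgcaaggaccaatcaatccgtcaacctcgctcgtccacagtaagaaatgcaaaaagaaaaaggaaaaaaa

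The windows were searched for 5 motifs on both strands, and no motif is contained in another. CTTTGA, a core of the sites of TCF/LEF factors, was in 3 of 24 Hox windows (12.5%), and 13.8% of all 32851 windows of the table held it. AGGTCA, the half-site of nuclear receptors such as the retinoic acid receptors, was in 6 (25%), against 14% of all windows. TTTATG, read by Cdx factors, was in 5 (20.8%, against 10.8%), TATAAA was in 4 (16.7%, against 12.4%), and TGATTGAC, a site of Pbx with Meis or Pknox partners, was in 0 (against 0.691%). The 24 windows belong to 22 of the 39 genes, and 10 of them each to HoxA and HoxD. In the sequences printed, the capitals in Hoxb4 and Hoxc4 are AGGTCA read on the other strand, and Hoxd8 holds CTTTGA at 2 places and AGGTCA at 1. A match is a description of letters and not a site in use. The median number of CG dinucleotides was 12.5 in the Hox windows and 6.0 in all windows, with 28 in the Hoxa5 window and 6 in that of Hoxd8.

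Each library had its own set of Hox genes, with the HoxB cluster in common. More than 3 counts were found for 19 of 39 genes in wt 1 and 19 in wt 2, and for 11, 24 and 20 in null 1, null 2 and null 3. Across libraries, 9 genes passed this level in all 5, 7 in 1 library alone and 11 in none. At least 1 FPKM in any library was reached by 23 genes, and of these, 8 reached it in all 5 libraries, which are Hoxb2 to Hoxb9. The highest level of the 23 lay in null 2 for 13 genes, in null 3 for 4, in wt 2 for 3, in null 1 for 2 and in wt 1 for 1.

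**Figure D1:**
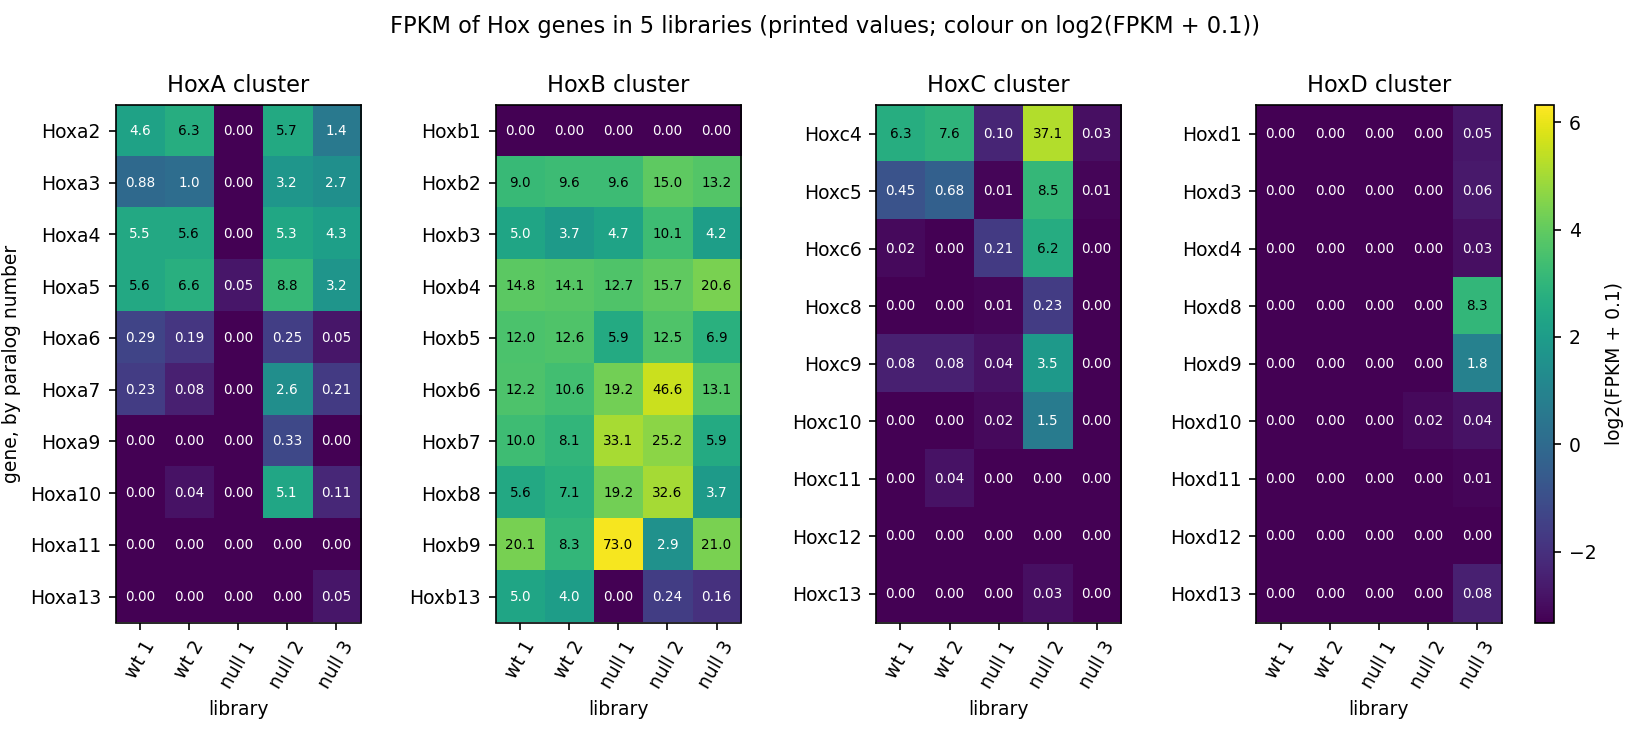
Level of the Hox genes (rows, by paralog number, 1 panel a cluster) in the 5 libraries (columns), with FPKM printed in each cell and colour on log2(FPKM + 0.1). Hoxb2 to Hoxb9 are filled in every column, HoxA is dark in null 1, HoxC is bright in null 2 and HoxD is dark except for Hoxd8 (8.28 FPKM) and Hoxd9 (1.80 FPKM) in null 3.

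Summed over its genes, HoxB stood at 93.6 and 78.1 FPKM in wt 1 and wt 2 and at 177.3, 160.7 and 88.7 FPKM in null 1, null 2 and null 3. It made up 78.5% and 72.6% of all Hox FPKM in the wt pair and 99.7%, 64.0% and 78.1% in the 3 null lines. HoxA stood at 18.7, 21.1, 0.10, 33.1 and 14.5 FPKM in the same order. HoxC was at 6.84 and 8.39 FPKM in the wt pair and at 0.390, 57.1 and 0.0400 FPKM in null 1, null 2 and null 3. HoxD was at 0 in both wt libraries and null 1, at 0.0200 FPKM in null 2 and at 10.3 FPKM in null 3. Null 1 thus had next to no HoxA and HoxC RNA, null 2 had the most HoxC, and null 3 had HoxD RNA with next to no HoxC. In bulk RNA, fewer cells with a gene and less of its RNA per cell cannot be told apart.

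**Figure D2:**
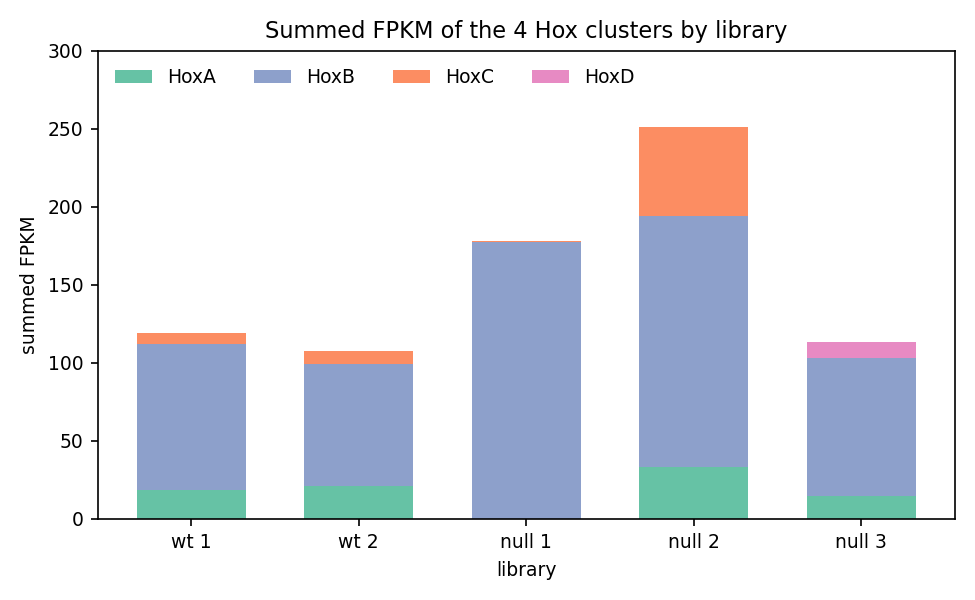
Summed FPKM of the HoxA, HoxB, HoxC and HoxD genes (stacked bars, axis from 0) in each of the 5 libraries. The HoxB part is the tallest in every bar, the HoxC part is tall in null 2 (57.1 FPKM), and the HoxD part is visible in null 3 alone (10.3 FPKM).

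Along the axis, genes of paralog groups 4 to 8 gave the largest share of Hox FPKM in every library, at 61.1% and 68.1% in wt 1 and wt 2 and 50.8%, 80.3% and 58.4% in null 1, null 2 and null 3. Groups 1 to 3 gave 17.7% and 20.4% in the wt pair and 8.08%, 14.3% and 21.1% in the 3 null lines. Groups 9 to 13 gave 21.1% and 11.6% in the wt pair and 41.1%, 5.44% and 20.5% in the 3 null lines. Hoxb9 made up most of this share in every library except null 2.

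Hoxb2 to Hoxb5 varied less between the null lines than Hoxb6 to Hoxb9. Hoxb2 (NCBI gene 103889), which patterns the hindbrain, was at 8.98 and 9.57 FPKM in wt 1 and wt 2 and at 9.58, 14.97 and 13.2 FPKM in null 1, null 2 and null 3. Hoxb3, a gene of hindbrain and pharyngeal arches, was at 5.02 and 3.70 FPKM in the wt pair and at 4.73, 10.1 and 4.16 FPKM in the 3 null lines. Hoxb4 (15412), best known for its role in blood stem cells, was at 14.8 and 14.1 FPKM in the wt pair and at 12.7, 15.7 and 20.6 FPKM in the 3 null lines. By FPKM the groups overlapped for Hoxb3 and Hoxb4. For Hoxb2 all 3 null libraries were above both wt by FPKM (exact permutation p = 0.2) but not after TMM scaling. After that scaling Hoxb4 lay below both wt libraries in all 3 null lines, at 45.7 and 49.9 CPM against 30.3, 33.2 and 43.9 CPM. Between the 3 null lines the log2(FPKM + 0.1) of Hoxb2 ranged over 0.64 and that of Hoxb4 over 0.69, the narrowest 2 of the 23 genes.

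Hoxb3 and Hoxb5 ranged over 1.25 and 1.08 between the null lines. Hoxb5, involved in the enteric nervous system and lung, was at 12.0 and 12.6 FPKM in wt 1 and wt 2 and at 5.86, 12.5 and 6.93 FPKM in null 1, null 2 and null 3. Hoxb6, expressed in trunk and limb mesoderm, was at 12.2 and 10.6 FPKM in the wt pair and at 19.2, 46.6 and 13.1 FPKM in the 3 null lines. Null 2 was highest for Hoxb6, and all 3 null libraries lay above both wt by FPKM (exact permutation p = 0.4). Hoxb7, active in the ureteric bud, was at 10.0 and 8.14 FPKM in the wt pair and at 33.1, 25.2 and 5.90 FPKM in the 3 null lines. Hoxb8, known from blood progenitors and the spinal cord, was at 5.58 and 7.14 FPKM in the wt pair and at 19.2, 32.6 and 3.69 FPKM in the 3 null lines. For Hoxb7 and Hoxb8, null 1 and null 2 were above both wt libraries and null 3 was below them.

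Hoxb9 (15417), a patterning gene of the rib cage, was at 20.1 and 8.31 FPKM in wt 1 and wt 2 and at 73.0, 2.87 and 21.0 FPKM in null 1, null 2 and null 3. It was the most abundant Hox gene in wt 1, null 1 and null 3 and the least of Hoxb2 to Hoxb9 in null 2, and the groups overlapped. It was also the single Hox gene of the 23 whose wt libraries, the same line without and with TSH, lay at least 1 apart on the log2(FPKM + 0.1) scale (1.26), against 13.3% of all 12217 genes at 1 FPKM or more in any library. Which of TSH and the library brought this gap cannot be told apart.

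**Figure D3:**
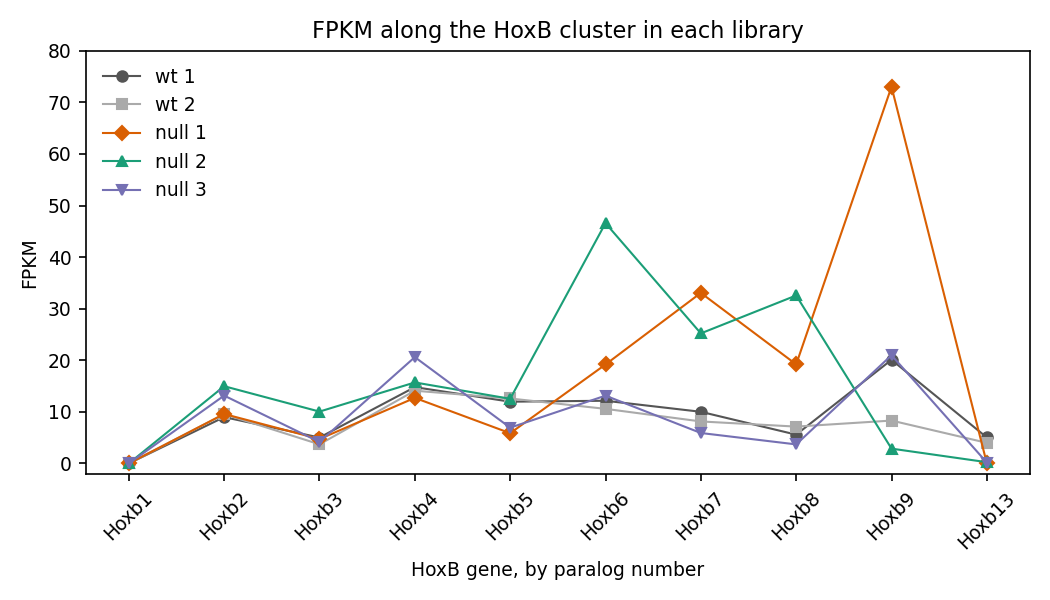
FPKM (linear axis) of the 10 HoxB genes, by paralog number, with 1 line for each library. The 5 lines lie closer at Hoxb2 to Hoxb5 than at Hoxb6 to Hoxb9, where null 2 peaks at Hoxb6 (46.6 FPKM) and null 1 at Hoxb9 (73.0 FPKM), and at Hoxb13 the wt libraries lie above the null.

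Hoxb13 (15408), the most posterior gene of its cluster and a regulator of tail and prostate, was lower in every null library than in both wt libraries. It had 201 and 161 counts in wt 1 and wt 2 and 0, 9 and 6 counts in null 1, null 2 and null 3, or 4.51 ± 0.735 FPKM (SD, n = 2) against 0.133 ± 0.122 FPKM (n = 3, two-sided exact permutation p = 0.1). The fitted log2 fold change was -5.69 (SE 1.32, edgeR unadjusted p = 0.00382), with an adjusted p of 0.180 over all genes, so it did not pass the threshold of 0.05. DESeq2 gave -5.82 with an adjusted p of 4.15e-05. With 1 library left out, edgeR gave between -6.46 and -5.16. The wt libraries come from 1 line, so for Hoxb13 the line and the genotype cannot be told apart.

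HoxA RNA was present in the wt line, null 2 and null 3 and nearly absent from null 1. Hoxa2, the selector of the second pharyngeal arch, was at 4.56 and 6.30 FPKM in the wt pair and at 0, 5.68 and 1.41 FPKM in the 3 null lines. Hoxa3, needed for thymus and parathyroid formation, was at 0.88 and 1.00 FPKM in the wt pair and at 0, 3.21 and 2.66 FPKM in the 3 null lines. In each case null 1 was lowest, and the other 2 null lines lay around or above the wt line except for Hoxa2 in null 3.

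Hoxa4, a cervical patterning gene, was at 5.53 and 5.56 FPKM in wt 1 and wt 2 and at 0, 5.30 and 4.30 FPKM in null 1, null 2 and null 3. All 3 null libraries of Hoxa4 were below both wt (exact permutation p = 0.3). Hoxa5 (15402), needed for lung and trachea and the most abundant HoxA gene in the wt libraries and null 2, had 320 and 384 counts in the wt pair and 3, 483 and 177 counts in the 3 null lines. Over the 11 genes, HoxA gave 1043 and 1188 counts in the wt libraries, 7 counts in null 1, 1909 in null 2 and 849 in null 3. The RefSeq spans of Hoxa4, Hoxa5 and Hoxa6 overlap that of Hoxa3, as does Hoxb4 that of Hoxb3, and the counting could divide reads between them.

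Hoxa7, Hoxa9 and Hoxa10 were highest in null 2. Hoxa7 was at 0.23 and 0.08 FPKM in the wt pair and at 0, 2.59 and 0.21 FPKM in the 3 null lines. Hoxa10, a patterning gene of lumbar spine and uterus, had 0 and 3 counts in the wt pair and 0, 330 and 7 counts in the 3 null lines. Hoxa9 had 30 counts in null 2 and 0 in the others, Hoxa6 was at or under 0.29 FPKM throughout and Hoxa13 had 2 counts in null 3.

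HoxC RNA set null 2 apart. Hoxc4 (15423), an anterior gene of the neck and upper trunk, had 383 and 467 counts in wt 1 and wt 2 and 6, 2167 and 2 counts in null 1, null 2 and null 3, which is 6.29 and 7.59 FPKM against 0.10, 37.1 and 0.03 FPKM. Hoxc5 followed it, at 0.45 and 0.68 FPKM in the wt pair and at 0.01, 8.49 and 0.01 FPKM in the 3 null lines. For both genes null 2 was the highest library and null 1 and null 3 the lowest, with the wt line between them.

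Further along HoxC, null 2 was nearly alone. Hoxc6, a gene of thoracic vertebrae and mammary gland, had 1 and 0 counts in wt 1 and wt 2 and 10, 290 and 0 counts in null 1, null 2 and null 3. Hoxc9, of thoracic motor neurons, had 4 and 4 counts in the wt pair and 2, 178 and 0 in the 3 null lines. Hoxc10, of the lumbar level, had 0 and 0 counts in the wt pair and 1, 85 and 0 in the 3 null lines. Hoxc8 between them on the axis reached 16 counts in null 2, at 0.23 FPKM, and Hoxc11 and Hoxc13 had at most 2 counts in any library. From Hoxc4 to Hoxc10, null 2 thus held RNA of 6 HoxC genes over 3 counts, against 3 in each wt library, 2 in null 1 and 0 in null 3.

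HoxD RNA was found in null 3. Hoxd8 (15437), a trunk gene, had 0 and 0 counts in wt 1 and wt 2 and 0, 0 and 346 counts in null 1, null 2 and null 3. Hoxd9 (15438), of trunk and limb, had 112 counts in null 3 and 0 in the other 4 libraries. Their levels in null 3 were 8.28 and 1.80 FPKM. The other HoxD genes of null 3 had between 0 and 6 counts, and in the other libraries a single count, of Hoxd10 in null 2, was the whole HoxD cluster. The 2 wt libraries and null 1, each with 0 HoxD counts, allow up to 3 counts a gene at this depth.

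Each null library was set beside the mean of the wt libraries by a rule of size, a difference of at least 2 on the log2(FPKM + 0.1) scale, with no test because a line is 1 library. In null 1, 8 of 35 Hox genes were lower (among them Hoxa2 to Hoxa5, Hoxb13, Hoxc4 and Hoxc5), against 4.02% of all 17923 genes, and 1 was higher (Hoxb9), against 12.6%. In null 2, 10 were higher (Hoxa7, Hoxa9, Hoxa10, Hoxb6, Hoxb8, Hoxc4, Hoxc5, Hoxc6, Hoxc9 and Hoxc10), against 12.3% of all genes, and 2 were lower (Hoxb9 and Hoxb13), against 3.01%. In null 3, 2 were higher (Hoxd8 and Hoxd9), against 14.0%, and 3 were lower (Hoxb13, Hoxc4 and Hoxc5), against 2.45%. As shares of the 35 genes, the lower ones were 22.9%, 5.71% and 8.57% and the higher ones 2.86%, 28.6% and 5.71% in null 1, null 2 and null 3. Past this size in all 3 null lines were Hoxb13, lower in each, and Hoxc4 and Hoxc5, lower in null 1 and null 3 and higher in null 2, and the 3 comparisons share the wt libraries.

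Whether deletion of Ctnnb1 went with a change in Hox expression was asked over all 5 libraries with edgeR's quasi-likelihood test. Of the 39 genes, 18 passed the filter on low counts, and several genes high in 1 library alone (Hoxa10, Hoxc9, Hoxc10, Hoxd8 and Hoxd9) did not, whereas Hoxa7 and Hoxc6, highest in null 2, did. At an adjusted p under 0.05 no Hox gene rose or fell, and among all 13240 genes tested the shares were 0% higher and 0% lower. At an unadjusted p under 0.05, 0 of 18 Hox genes were higher, against 12.4% of all genes, and 1 was lower (Hoxb13), against 6.07%. DESeq2 at an adjusted p under 0.05 called 0 Hox genes higher, against 8.41% of all genes, and 1 lower (Hoxb13), against 3.68%. It gave no adjusted p for Hoxc4 and Hoxc5. The 18 fitted log2 fold changes were positive for 9 genes, with a median of 0.07, beside a median of 0.29 over all genes tested. Without null 2 the Hox median was -0.96, with 3 of 17 genes positive, and without null 1 it was -0.08 over 17 genes. Without wt 1 or wt 2 it was 0.60 or 0.53, over 25 genes that passed the filter there, with the lone wt library assumed to vary like the null libraries.

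The errors of these fold changes were as large as the changes for most genes. Hoxb5 had the second lowest p, with a log2 fold change of -1.15 (SE 0.51, edgeR adjusted p = 0.286), and Hoxc6 had 6.84 (SE 3.09, edgeR adjusted p = 0.292), which rests on 1 count in the wt libraries and on null 2 and is no bound. Hoxc4 had 0.18 (SE 2.20, edgeR adjusted p = 0.970), and without null 2 it stood at -7.27. Hoxb9 had 0.71 (SE 1.19, edgeR adjusted p = 0.769), and without null 1 it stood at -0.90. By FPKM, all 3 null libraries were above both wt for 2 of the 35 genes (Hoxb2 and Hoxb6), against 28.8% of all genes, and below both for 2 (Hoxa4 and Hoxb13), against 6.10%. After TMM scaling of the counts these were 0 and 6, against 18.8% and 14.1% of all genes, the 6 being Hoxa2, Hoxa4, Hoxa6, Hoxb4, Hoxb5 and Hoxb13.

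**Figure D4:**
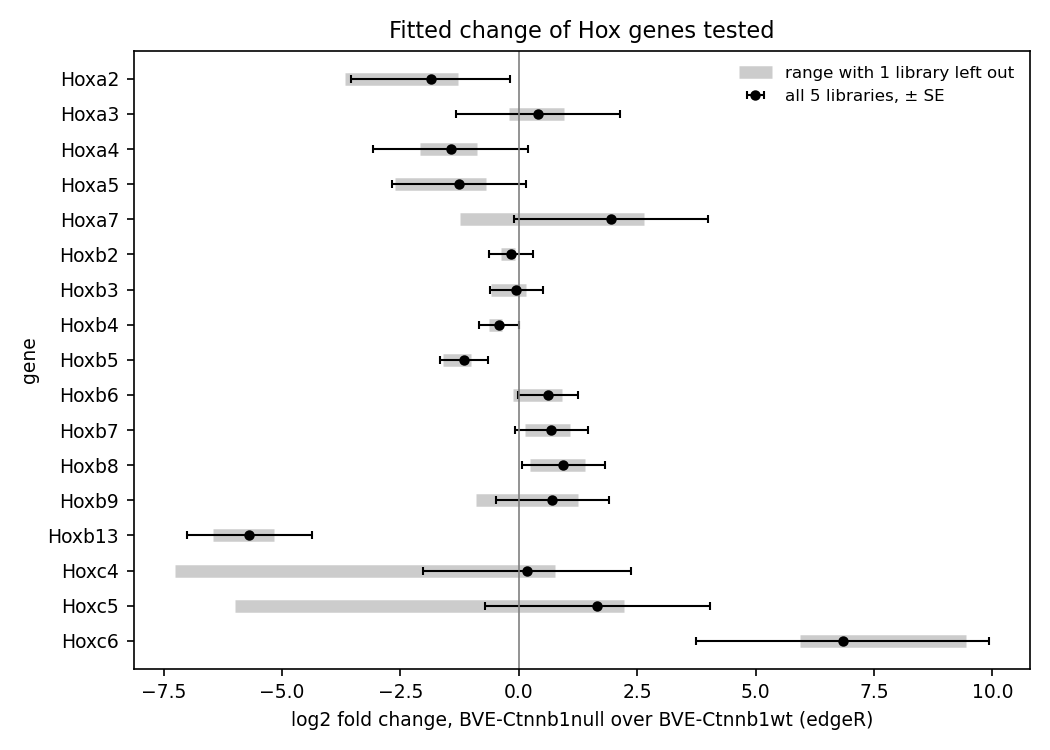
Fitted log2 fold change of null over wt for the Hox genes tested (points, edgeR, bars ± SE), with grey bars for the range when 1 library is left out. Most bars cross 0, the grey bars of Hoxc4 and Hoxc5 reach to -7.27 and -6.00, and Hoxb13 lies at -5.69 with a grey bar from -6.46 to -5.16.

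The spread between the null lines was read beside that of all genes. A set chosen by the wt pair alone, at 1 FPKM or more in both libraries, held 14 Hox genes and 8771 of all genes. Over these the median range of log2(FPKM + 0.1) between the 3 null lines was 2.79 for the Hox genes and 1.30 for all genes, and between the wt libraries 0.28 and 0.38. A range of 2 or more between null lines was found for 8 of the 14 (57.1%), which were 3 of 9 HoxB genes and 5 of 5 outside HoxB, and for 22.6% of all genes. Over the 23 Hox genes at 1 FPKM or more in any library, the median range was 4.62, beside 1.46 over 12217 genes. Of these 23, 8 (Hoxa7, Hoxa10, Hoxc5, Hoxc6, Hoxc9, Hoxc10, Hoxd8 and Hoxd9) reached 1 FPKM in a single null line alone, so a wide range was fixed by that choice. These are descriptions with no test, since the genes of a cluster are not independent.

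As a description of likeness, with no test, the Pearson correlation of log2(FPKM + 0.1) over the 23 Hox genes was 0.99 between wt 1 and wt 2, which share a line. It was 0.55 for null 1 with null 2, 0.66 for null 1 with null 3 and 0.14 for null 2 with null 3. Between a wt and a null library it was between 0.59 and 0.68. Over all 12217 genes the same pairs of null lines gave 0.74, 0.76 and 0.81. As 6 of the 23 genes reached 1 FPKM in null 2 alone and 2 in null 3 alone, that choice of genes lowers the value of null 2 with null 3. Over the 9 HoxB genes, which no single null line brings in, the same null pairs gave 0.71, 0.87 and 0.66, the wt pair gave 0.78, and the lowest value was 0.21, for wt 1 with null 2. The lines BVECTN_4 and BVECTN_4A, which share a name stem, differed in HoxA and HoxC as described.

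Hox proteins bind DNA with partners of the TALE class (Pbx, Meis and Pknox). Of 9 such genes, all were listed and 8 were tested, of which 0 passed the adjusted threshold and 1 was higher at an unadjusted p under 0.05, against 12.4% of all genes. Pbx2, the most abundant partner in every library, was at 15.3 and 25.5 FPKM in the wt pair and at 31.1, 15.6 and 26.1 FPKM in the 3 null lines, and the groups overlapped. Pbx3 was at 2.56 and 2.94 FPKM in the wt pair and at 4.11, 10.8 and 3.16 FPKM in the 3 null lines. Meis3 overlapped too, at 13.1 and 8.82 FPKM against 16.9, 9.75 and 4.36 FPKM. Pknox2, picked after its values were seen, had 552 counts in null 3, the line with HoxD RNA, and 1, 3, 0 and 0 counts in wt 1, wt 2, null 1 and null 2.

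RNA of genes for the chromatin complexes that hold Hox patterns was read next. Of 15 Polycomb genes, all tested, 0 passed the adjusted threshold, 3 were higher and 1 lower at an unadjusted p under 0.05 (against 12.4% and 6.07% of all genes), and the median log2 fold change was 0.91, beside 0.29 over all genes. Phc2, a subunit of the canonical repressive complex, was the most abundant in every library, at 125.4 and 51.1 FPKM in wt 1 and wt 2 and 145.1, 162.1 and 47.5 FPKM in null 1, null 2 and null 3. Of the 3 higher ones, named after their values were seen, Suz12, a core subunit of the H3K27 methyltransferase complex, was at 0.50 and 0.44 FPKM in the wt pair and at 2.13, 7.54 and 4.42 FPKM in the 3 null lines (log2 fold change 2.71, SE 0.71, edgeR adjusted p = 0.191). Bmi1 and Rnf2, of the H2A ubiquitin ligase complex, had log2 fold changes of 2.27 and 1.60. Of 12 Trithorax genes, all tested, 0 passed the adjusted threshold and 5 were higher at an unadjusted p under 0.05 (Kmt2a, Kmt2b, Kmt2c, Kmt2d and Kdm6a, against 12.4% of all genes), with a median of 1.01. Kmt2c and Kmt2d were scarce in wt 1 and wt 2, at 0.04 and 0.05 FPKM and at 0.06 and 0.04 FPKM. In null 1, null 2 and null 3 they were at 0.40, 0.32 and 0.22 FPKM and at 1.23, 0.66 and 0.54 FPKM. The abundant Dpy30 was at 51.0 and 71.5 FPKM in the wt pair and 47.35, 76.3 and 89.3 FPKM in the null lines. Its log2 fold change was -0.41 (SE 0.47, edgeR adjusted p = 0.654). Ash2l, Rbbp5 and Wdr5 had -0.51, -0.31 and -0.11. Kmt2a, 1 of the 5 higher genes and not an abundant member, is the H3K4 methyltransferase best known for maintaining Hox expression. It was at 0.20 and 0.13 FPKM in the wt pair and at 1.01, 1.77 and 0.95 FPKM in the 3 null lines (log2 fold change 2.35, SE 0.61, edgeR adjusted p = 0.191).

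Of 9 genes for Cdx factors and retinoic acid receptors, which act upstream of Hox genes in the embryo, 5 were tested, 0 passed the adjusted threshold and 1, Rxra, was higher at an unadjusted p under 0.05, against 12.4% of all genes. Rxra was at 0.83 and 1.38 FPKM in wt 1 and wt 2 and at 24.1, 3.73 and 12.0 FPKM in null 1, null 2 and null 3 (log2 fold change 3.02, SE 0.93, edgeR adjusted p = 0.201). Rarg, the most abundant receptor of the list in all 3 null lines, was at 30.7 and 35.5 FPKM in the wt pair and at 77.1, 21.5 and 100.6 FPKM in the 3 null lines. Cdx2, chosen after its values were seen, had 61 counts in null 1 and 0 or 1 in the other libraries, and Cdx4 was listed in none.

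Noncoding genes of the clusters were hardly seen in these libraries. Of 16, 13 were not listed in any library, among them Hotair, Hottip, Hotairm1 and Mir10a. Mir196a-1, a miRNA precursor gene between Hoxb9 and Hoxb13, had 6 and 5 counts in wt 1 and wt 2 and 0 in all 3 null libraries. Hoxaas3 had 11 and 5 counts in the wt pair and 0, 2 and 0 in the 3 null lines, and Hoxd3os1 had 5 counts in null 3 alone. A TruSeq RNA library holds little of mature miRNAs. Whether the counting used strand is not given in the sources used here, so antisense and Hox reads may not be separated.

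The protein-coding neighbours of each cluster, the nearest 2 on each side in the RefSeq table, were read in the same way, and for HoxA, HoxC and HoxD at least 1 of them had RNA in libraries where the cluster itself was at or near 0. Beside HoxA, Skap2 was at 49.8 and 40.4 FPKM in wt 1 and wt 2 and at 17.3, 25.7 and 35.2 FPKM in null 1, null 2 and null 3, and Hibadh was at 30.8 and 24.0 FPKM against 31.5, 31.3 and 49.1 FPKM. Both were thus present in null 1, where HoxA was nearly absent. Beside HoxC, Smug1 was at 6.56 and 5.09 FPKM in the wt pair and at 5.17, 5.70 and 7.03 FPKM in the 3 null lines, and Calcoco1 was at 19.0 and 23.4 FPKM against 68.8, 29.2 and 41.3 FPKM. Beside HoxD, Mtx2 was at 37.4 and 23.1 FPKM in the wt pair and at 17.99, 33.1 and 53.9 FPKM in the 3 null lines, all with RNA although HoxD was at 0 in 3 of them. The homeobox genes at the posterior ends were at or near 0, with Evx1 at 0 in all 5 libraries and Evx2 at or under 0.02 FPKM, and Gm50595, beside Hoxd1, was at 0 in all 5 libraries.

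Of 14 other transcription factors that mark body regions, 13 were listed and 6 tested, with 0 past the adjusted threshold and 1 (Emx2, named after its values were seen) higher at an unadjusted p under 0.05, against 12.4% of all genes. At 1 FPKM or more were 1, 1, 1, 4 and 6 of the 14 in wt 1, wt 2, null 1, null 2 and null 3. Foxf1, a factor of foregut mesenchyme, was at 16.1 and 21.3 FPKM in wt 1 and wt 2 and at 0.33, 29.4 and 17.96 FPKM in null 1, null 2 and null 3, and so was low in the library that had next to no HoxA. Tbx1, a pharyngeal factor, was at 6.43 FPKM in null 3 and at or under 0.02 FPKM in the other libraries, and Tbx15 was at 0.21 and 0.64 FPKM in the wt pair and at 0.05, 2.23 and 3.01 FPKM in the 3 null lines. Otx2, of the forebrain, was listed in none.

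Cell type markers moved with these differences, and their part in the Hox results was not tested. The 10 fibroblast and mesenchymal markers summed to 1805 and 3701 FPKM in wt 1 and wt 2 and to 86.5, 3050 and 2703 FPKM in null 1, null 2 and null 3, with Vim the most abundant in every library. In null 1, the line with next to no HoxA, Col3a1 and Pdgfrb were at 0, against 6.98 and 5.06 FPKM or more in the others, Lum was at 0 as in wt 2 and null 2, and Twist1, a mesenchymal transcription factor, was at 0.02 FPKM against 30.4 FPKM or more in the others. The 8 epithelial markers summed to 1078 and 1746 FPKM in the wt pair and to 12288, 705.6 and 1226 FPKM in the 3 null lines, led by Krt8 in the wt libraries, Krt7 in null 1 and null 3 and Krt18 in null 2. In null 3, the line with HoxD RNA, Dcn, a matrix proteoglycan gene chosen after its values were seen, was at 84.7 FPKM against 0.12 FPKM or less in the others, and Col1a2 was at 334.2 FPKM against 51.1 FPKM or less. In null 2, the line with the most HoxC, Epcam and Cdh1 were at 0. The 8 thyroid follicular markers summed to 15.2 and 20.6 FPKM in the wt pair and to 35.0, 68.5 and 4.83 FPKM in the 3 null lines.

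**Figure D5:**
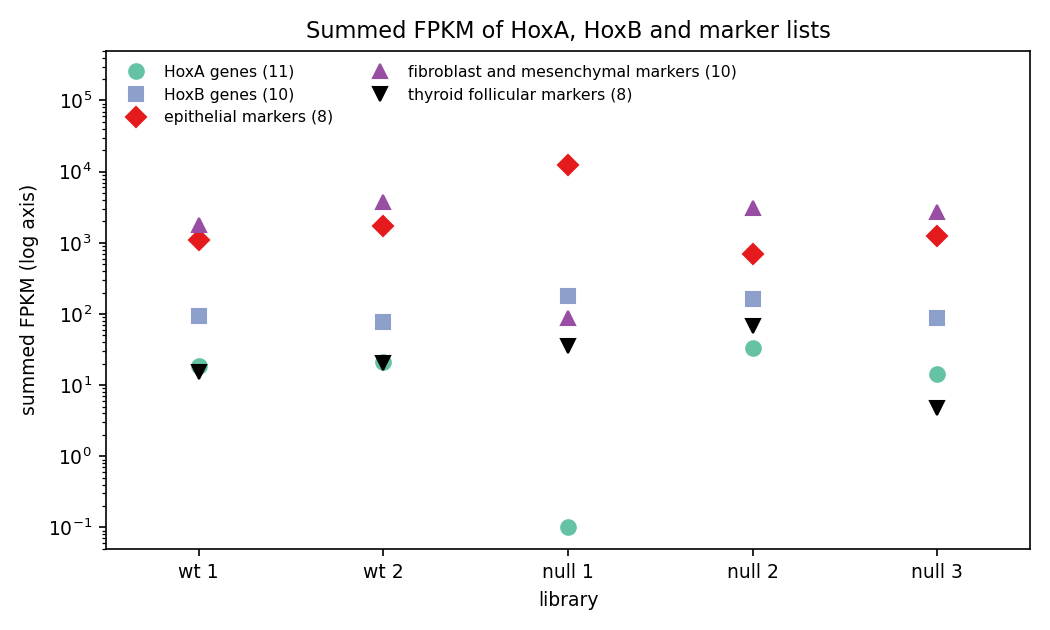
Summed FPKM (log axis) of the HoxA genes, the HoxB genes and 3 marker lists in each library, 1 symbol a list with its number of genes in the legend. In null 1 the HoxA and mesenchymal sums are at their lowest (0.10 and 86.5 FPKM) and the epithelial sum at its highest (12288 FPKM), while HoxB stays between 78.1 and 177.3 FPKM across the 5 libraries.

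Defining markers of other cells were near 0. The endothelial markers, 4 in number, summed to at most 0.660 FPKM. Of the 4 leukocyte markers Ptprc and Cd3e were at 0 in every library. Cd68, a lysosomal gene, was at 6.09 and 14.2 FPKM in wt 1 and wt 2 and at 59.8, 1.00 and 39.9 FPKM in null 1, null 2 and null 3. Cd79a, at or under 0.77 FPKM, had 31 and 24 counts in the wt pair and 7, 1 and 1 in the 3 null lines. Its log2 fold change was -3.61 (SE 1.25, edgeR unadjusted p = 0.0248, adjusted p = 0.223). Of the parafollicular markers Calca was at or under 0.73 FPKM, and of the parathyroid markers Gcm2 and Pth were at 0 and Casr was at or under 0.01 FPKM.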

How the data were processed

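RNA of 5 cultured libraries was sequenced by the authors as TruSeq libraries on an Illumina HiSeq. Aligner, counting program, genome build and strand setting are not given in the sources used here. For each RefSeq transcript the authors deposited an estimated count (not always whole), the transcript's length and its FPKM, for transcripts from 0.01 FPKM upward. Both were summed per NCBI gene, counts were rounded, and unlisted genes were set to 0. Symbols came from the RefSeq table of GRCm38.p6 (17866 of 17923 matched), and so did promoters (24 windows of 22 Hox genes).

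All genes passing filterByExpr (13240) were compared, 2 wt against 3 null libraries, with edgeR 4.0.16 in R 4.3.3 (TMM normalization, glmQLFit, glmQLFTest, Benjamini-Hochberg adjustment, threshold 0.05). TMM factors were 0.842, 0.735, 1.085, 1.222 and 1.219 in wt 1, wt 2, null 1, null 2 and null 3, and the 10 most abundant genes took 14.3%, 14.96%, 6.93%, 8.00% and 7.92% of counts. Alternatives were DESeq2 1.42.0, no filter, a minimum of 10 counts in each library, limma-trend (limma 3.58.1) on log2(FPKM + pseudocount) with pseudocounts of 0.1, 0.01 and 1 (genes of at least 0.5 FPKM in 2 libraries), each library left out in turn, a replicate block and, for levels, the most abundant transcript. Single genes were compared by FPKM with exact permutation tests over the 10 splits (numpy 2.4.6, Python 3.11.15). The fits were also run on simulated data with 200 changed genes. The spread simulated between libraries was smaller than the one fitted here, so that run does not show their power in these libraries.

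Values in every library are given for Hox genes of 1 FPKM or more in any library, and for other lists up to 4 abundant members or those at 0, with exceptions marked. The members and lists were chosen with earlier results of these data known. The animal and cytotoxicity experiments were not analysed here, and a few members of the lists, counted in sums and totals, are not reported here by name or drawn.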

Additional observations from a re-analysis of the deposited data

How the results depend on the processing

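Across alternatives, 0 Hox genes passed the adjusted threshold, with the exception of Hoxb13 under DESeq2 (1 lower). Counts over all genes moved more, from 0 and 0 to 1113 higher and 487 lower with DESeq2, 4 lower without a filter, 1 lower with at least 10 counts in every library, and 1 higher with 5, 3 or 7 lower with limma on FPKM plus 0.1, 0.01 or 1. Leaving out any 1 library gave 0 calls in either direction. Of the alternative log2 fold changes of single Hox genes, 166 kept their direction without passing the threshold, 31 turned and 1 passed the threshold. DESeq2 gave no adjusted p for Hoxc4 and Hoxc5, which are counted among the 166 by direction alone. The median over the Hox genes tested (0.07) went to -0.02 with DESeq2, 1.59 without a filter (35 genes tested), -0.29 and -0.86 with limma at +0.1 and +0.01, and between -0.96 and 0.60 with 1 library left out. Choosing genes by the wt pair, an alternative added after seeing the data, took the median range between null lines from 4.62 to 2.79.

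The summed HoxB level, null over wt, had a log2 ratio of 0.73 in FPKM and 0.19 in CPM after TMM normalization. The limma fits, which differ in scaling, filter and test, turned further genes, with +0.1, +0.01 and +1 giving 0.41, 0.41 and 0.38 for Hoxb2, 0.43, 0.43 and 0.37 for Hoxb3, 0.15, 0.15 and 0.14 for Hoxb4 and -2.83, -3.66 and -1.17 for Hoxc4. At +0.1 and +0.01, Hoxa3 stood at -0.10 and -1.10 and Hoxc5 at -0.48 and -1.91. The median over all genes was 0.29 after TMM, 0.21 with DESeq2 and 0.61 with limma at +0.1, so changes are relative to these. The cause of the reversals was not tested.

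With 1 library left out, the log2 fold change ran from -0.21 to 0.96 for Hoxa3, -1.24 to 2.65 for Hoxa7, -0.59 to 0.16 for Hoxb3, -0.12 to 0.91 for Hoxb6, -0.90 to 1.26 for Hoxb9, -7.27 to 0.76 for Hoxc4 and -6.00 to 2.23 for Hoxc5. The negative ends of Hoxa3, Hoxa7, Hoxb6, Hoxc4 and Hoxc5 came without null 2, and that of Hoxb9 without null 1. Hoxc4 also stood at -0.12 without wt 1, and Hoxb3 at 0.00, 0.06 and 0.16 without wt 1, null 1 and null 3.

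No label says that the replicate numbers pair the libraries, and they are treated as numbers alone. The deviations of same-numbered libraries correlated at -0.11, but with 2 wt libraries their deviations mirror each other, so these correlations do not test the pairing. With the replicate number as a block, 0 genes passed in either direction, with 947 higher and 550 lower at an unadjusted p under 0.05 against 1646 and 804 without it, and the log2 fold change was -2.47 for Hoxa3, 0.13 for Hoxb3, -0.38 for Hoxb9, -2.15 for Hoxc4 and -0.66 for Hoxc5, with a Hox median of -0.62. Genes with few counts, among them most of HoxD, cannot be told from 0 under 3 counts.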
